A study of Mus musculus with 24 samples.

Results

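Intact static organoids between day 25 (D25) and day 32 (D32) of differentiation were compared gene by gene. They are mouse retinal organoids grown from embryonic stem cells and kept whole in static suspension culture (SSCi), with 3 libraries at D32 and 2 at D25, and the libraries were taken by their labels: 5 of the 24 in the series. The other libraries came from SSCi at D18, from optic cups cut out of the organoids at D10 and kept in static culture (SSCd, D18 to D28), and from such cups in a rotating-wall bioreactor (RWB, D18 to D25). All SSCi organoids were fed DMEM/F12 with N2 supplement, 1 mM taurine, 500 nM 9-cis retinal and 100 ng/ml IGF1. From D26 their medium also held non-essential amino acids, B27 without vitamin A and 2% fetal bovine serum, which SSCd and RWB cultures had from D18. The D32 organoids had therefore been in the richer medium and the D25 organoids had not, so that age and the change of medium cannot be told apart in this comparison. The stem cells were of 2 wild-type lines, R1 and a line from blastocysts of Nrl-GFP transgenic mice, and the sources used here do not say which line gave which library. The series' design calls repeated experiments biological replicates, and each library is RNA from tissue homogenates, so all cells left in the whole organoid contribute.

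The retina forms its cell classes from one pool of dividing progenitors, in an overlapping order in which ganglion, horizontal, cone and amacrine cells come early and rods, bipolar cells and Müller glia late. A rod first expresses the transcription factors that fix its fate (Otx2, Crx, Nrl, Nr2e3) and later the proteins of the outer segment that catch light and close the cation channel. Bipolar cells pass the rod and cone signal inward, and Müller glia support all layers and carry stress markers such as Gfap when retinal tissue is disturbed.

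Stranded libraries of polyadenylated RNA were sequenced with paired ends, and the deposited values are estimated read counts per gene. The libraries held 15333844, 13503732 and 13284632 estimated counts at D32, against 13724160 and 15040526 at D25. Levels of single genes are given as CPM, the count relative to the library's TMM-scaled total, and are not divided by gene length, so they are compared between days and not between genes. Summed levels of gene lists are relative to the library's total without this scaling. Mitochondrially encoded genes took 3.98% to 4.40% of the counts at D32, against 4.97% and 3.06% at D25. The D25 libraries differed more from each other than the D32 libraries did: the variance between replicates was 48.3 times that of counting alone at D25 and 10.3 to 17.3 times at D32, over genes with a mean of at least 100 counts. The retinal label matched its markers, with Crx, Nrl, Pax6 and Rlbp1 present in all 5 libraries.

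At D32 rod phototransduction, bipolar and glial genes were among those that had risen relative to D25, and progenitor and cell cycle genes among those that had fallen. Of 16792 genes tested with edgeR's quasi-likelihood test, 624 rose (3.72%) and 762 fell (4.54%) at an adjusted p under 0.05, 1386 in all (8.25%). The median log2 fold change of all genes tested was 0.0042. A further measure, whether all D32 libraries lay on one side of both D25 libraries, held for 25.5% of genes in the higher direction and 23.9% in the lower. With libraries left out in turn, 375 calls were kept in every fit, 98 higher and 277 lower. Each of the 5 moved the total: 671 genes were called without D25 replicate 1, 481 without D25 replicate 2, and 910, 894 and 879 without D32 replicates 1, 2 and 3. Where only 1 D25 library was left, it was assumed to vary like the other groups. In bulk RNA, fewer cells of a type and less RNA per cell cannot be told apart, which holds for all results here.

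**Figure D1:**
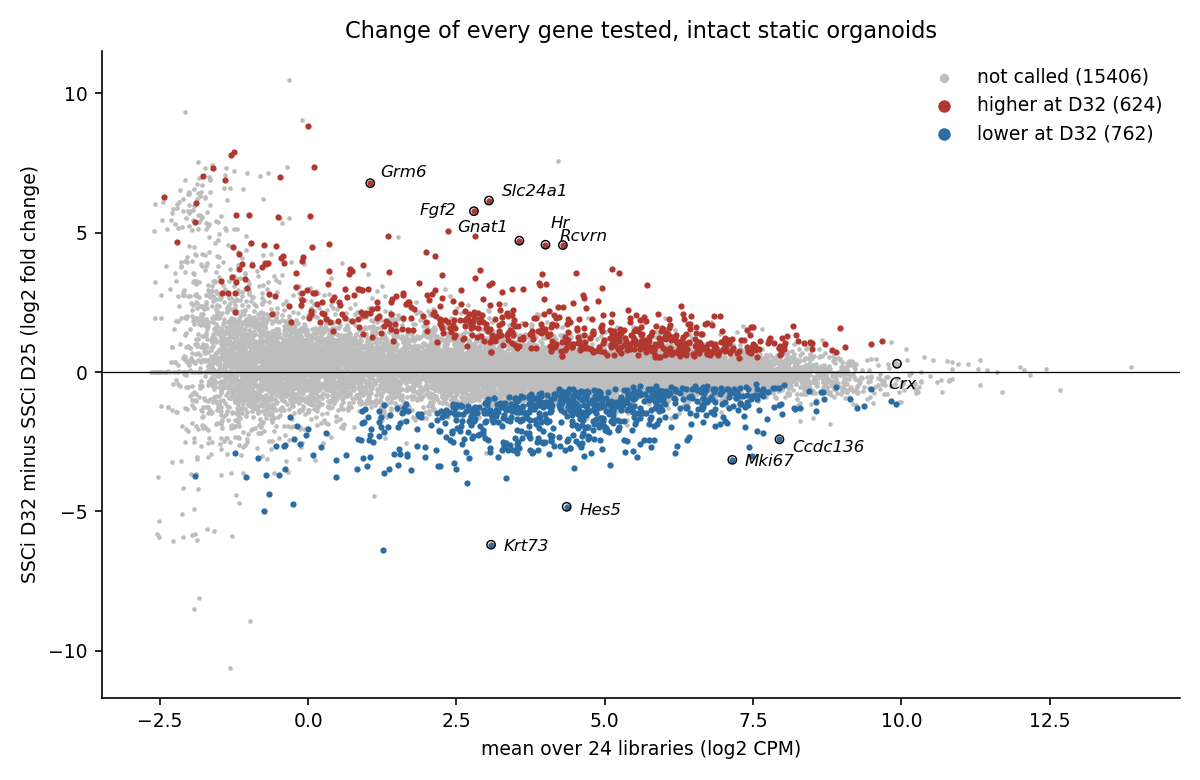
Each point is 1 of 16792 genes, with its mean over the 24 libraries (log2 CPM) on the x axis and SSCi D32 minus SSCi D25 (log2 fold change) on the y axis; red points rose, blue points fell and grey points were not called by edgeR. Ringed genes include Slc24a1 at 6.15 and Krt73 at -6.20, while the abundant Crx sat at 0.30 and was not called.

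Among called genes of at least moderate abundance whose libraries did not overlap, the highest change was that of Slc24a1, the rod sodium, calcium and potassium exchanger, and the lowest that of Krt73, a keratin. Slc24a1 had 201, 142 and 187 CPM at D32, against 2.25 and 2.69 CPM at D25, a change on the log2 scale of 6.15 ± 0.56 (SE, edgeR adjusted p = 2.97e-06). Krt73 had 0.38, 0.559 and 0.582 CPM at D32, against 37.4 and 37.7 CPM at D25, a change on the log2 scale of -6.20 ± 0.53 (SE, edgeR adjusted p = 2.62e-06). Replicates of a day lay far closer together than the days did. Other genes at the high end were Selenbp1, a selenium-binding protein, at 3.54 (edgeR adjusted p = 7.40e-05), Ahr, the aryl hydrocarbon receptor, at 3.18 (edgeR adjusted p = 8.92e-04), Alpl, tissue-nonspecific alkaline phosphatase, at 3.19 (edgeR adjusted p = 6.59e-04), and A2m, the protease inhibitor alpha-2-macroglobulin, at 3.52 (edgeR adjusted p = 0.00126). At the low end stood Epha8, an ephrin receptor, with 64.2, 53.6 and 62.9 CPM at D32, against 315 and 664 CPM at D25. Epha8 fell by 3.02 on the log2 scale (edgeR adjusted p = 2.88e-04), though its D25 libraries were uneven. Slc24a1, Krt73, Selenbp1, Ahr, Alpl, A2m and Epha8 kept the edgeR call in each of the 5 fits that left out 1 library.

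Among rod genes, most phototransduction genes were called higher at D32, and most transcription factors of rod fate were not called. Of 13 rod transcription factors, 1 rose and 1 fell, with a median log2 fold change of 0.40. Each is 7.69% of the list, against 3.72% of all genes that rose and 4.54% that fell. In 8 of the 13 every D32 library lay above both D25 libraries, and in 2 below, against 25.5% and 23.9% of all genes. The list's summed level was 7178 to 8186 CPM at D32, against 6322 and 6842 CPM at D25. Crx had 1579.8, 1393 and 1532 CPM at D32, against 1109 and 1336 CPM at D25, and its groups lay close together (log2 change 0.30 ± 0.29 SE, edgeR adjusted p = 0.623). Nrl, which sets rod against cone fate, had 1287, 1161 and 1293 CPM at D32, against 791 and 791 CPM at D25 (log2 change 0.66 ± 0.47 SE, edgeR adjusted p = 0.461), and Nr2e3, its target and partner, had 786, 671 and 764 CPM at D32, against 595 and 675 CPM at D25 (log2 change 0.22 ± 0.46 SE, edgeR adjusted p = 0.849). None of these 3 passed the test. Prdm1 (Blimp1), which in new photoreceptors holds back the bipolar programme, had 65.9, 47.5 and 81.4 CPM at D32, against 265 and 247 CPM at D25 and fell, with a change on the log2 scale of -1.98 ± 0.26 (SE, edgeR adjusted p = 1.02e-04). Otx2, upstream of all of these, had 514, 443 and 549 CPM at D32, against 877 and 833 CPM at D25 and missed the threshold (log2 change -0.77 ± 0.25 SE, edgeR adjusted p = 0.0679). Mef2c, a MADS-box factor of photoreceptor genes, rose by 1.57 (edgeR adjusted p = 0.0388). Leaving out any 1 of the 5 libraries did not end the edgeR call of Prdm1. Calls ended for Mef2c without D25 replicate 1, D25 replicate 2 or D32 replicate 2, with adjusted p up to 0.227.

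Rod phototransduction genes were higher as a group at D32. Of its 28 genes, 19 rose (67.9%, against 3.72% of all genes) and none fell, with a median log2 fold change of 1.85; all 28 had every D32 library above both D25 libraries, against 25.5% of all genes. Their summed level was 15180 to 18750 CPM at D32, against 6144 and 6853 CPM at D25. Gnat1, the rod transducin alpha subunit, had 141, 88.9 and 109 CPM at D32, against 4.51 and 4.12 CPM at D25, a change on the log2 scale of 4.71 ± 0.66 (SE, edgeR adjusted p = 1.72e-04). Guca1b, a calcium sensor that switches on guanylate cyclase, had 85.5, 77 and 89.5 CPM at D32, against 2.75 and 2.94 CPM at D25 (log2 change 4.88 ± 0.90 SE, edgeR adjusted p = 0.00149). Its groups, like those of Gnat1, stood far apart. Grk1, a photoreceptor kinase that shuts off the light response, had 324, 328 and 408 CPM at D32, against 46.6 and 35.4 CPM at D25 (log2 change 3.11 ± 0.53 SE, edgeR adjusted p = 8.91e-04), and Rcvrn, recoverin, the calcium sensor that restrains this kinase, had 398, 239 and 304 CPM at D32, against 13 and 13.4 CPM at D25 (log2 change 4.57 ± 0.87 SE, edgeR adjusted p = 0.00225). Rdh12, a retinol dehydrogenase that clears retinal, had 354, 292 and 352 CPM at D32, against 31.7 and 25.2 CPM at D25 (log2 change 3.55 ± 0.60 SE, edgeR adjusted p = 8.16e-04). In each of these the lowest D32 library was several times the highest D25 library. For the phosphodiesterase that breaks down cGMP, the alpha subunit Pde6a rose by 2.77 (edgeR adjusted p = 0.00372) and the inhibitory subunit Pde6g by 2.37 (adjusted p = 0.00926), while the beta subunit Pde6b had 1301, 1080.3 and 1194 CPM at D32, against 516 and 426 CPM at D25 and was not called (log2 change 1.34 ± 0.46 SE, edgeR adjusted p = 0.0844). Sag, rod arrestin, was not called (log2 change 1.00 ± 0.55 SE, edgeR adjusted p = 0.309). The list count depended on the D25 libraries, with 11 without D25 replicate 1 and 7 without D25 replicate 2. With each of the 5 libraries left out in turn, edgeR still called Slc24a1, Gnat1, Guca1b, Grk1 and Rdh12. Significance was lost for Rcvrn and Pde6g without either D25 library and for Pde6a without D25 replicate 2, with adjusted p up to 0.154.

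The promoters of the rod phototransduction genes were searched for the short core that CRX, named above, is known to bind. The core TAATCC was searched on both strands of RefSeq promoters (GRCm38.p6, 250 bases before to 50 after the start). It was in 10 of the 18 rod phototransduction genes with a promoter in that table (55.6%) and in 4 of the 10 that rose (40%), against 7.27% of tested genes with a promoter and 7.06% of all promoters. A match is a description of letters and not a bound site. The promoters of Gucy2f, a retinal guanylate cyclase that makes cGMP (chrX:142196887-142197186, minus strand), and Cnga1, the rod cGMP-gated channel (chr5:72642703-72643002, minus strand), are shown because both genes rose and both hold the core; capitals mark TAATCC or its reverse complement, whose first bases lie 84 and 59 bases before the start in Gucy2f and 228 before it in Cnga1.
Gucy2f: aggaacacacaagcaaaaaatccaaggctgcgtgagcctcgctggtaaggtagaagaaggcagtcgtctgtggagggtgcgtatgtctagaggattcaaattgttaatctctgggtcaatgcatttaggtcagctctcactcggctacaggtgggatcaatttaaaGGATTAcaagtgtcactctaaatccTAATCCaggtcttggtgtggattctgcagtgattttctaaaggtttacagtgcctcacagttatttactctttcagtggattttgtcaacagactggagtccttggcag
Cnga1: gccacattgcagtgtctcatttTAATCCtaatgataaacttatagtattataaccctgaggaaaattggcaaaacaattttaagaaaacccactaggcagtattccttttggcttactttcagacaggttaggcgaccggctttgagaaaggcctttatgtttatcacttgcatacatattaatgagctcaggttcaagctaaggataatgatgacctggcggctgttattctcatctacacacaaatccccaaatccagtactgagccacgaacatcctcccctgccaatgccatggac
Gucy2f had 9.68, 6.43 and 5.24 CPM at D32, against 0.634 and 0.25 CPM at D25 (log2 change 4.0 ± 0.86 SE, edgeR adjusted p = 0.00533). Cnga1 had 308, 289 and 315 CPM at D32, against 48.2 and 20.3 CPM at D25 (log2 change 3.15 ± 0.75 SE, edgeR adjusted p = 0.0115). In both, all D32 libraries were above both D25 libraries. The threshold was missed for Gucy2f and Cnga1 without D25 replicate 2, with adjusted p up to 0.20.

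Outer segment and connecting cilium genes were called in 1 direction. Of 36 tested, 14 rose and none fell, with a median log2 fold change of 0.82. Prph2, which shapes the disc rim, had 1912, 1498 and 1751 CPM at D32, against 539.7 and 591 CPM at D25 (log2 change 1.61 ± 0.42 SE, edgeR adjusted p = 0.0219). Each D32 library was above both D25 libraries. Cdhr1, a photoreceptor cadherin, and Mak, a kinase that limits cilium length, changed by 1.00 and 0.89 (edgeR adjusted p = 0.0122 and 0.0124). None of these genes was called in all 5 fits that left out 1 library, the count being 1 without D25 replicate 1, 0 without D25 replicate 2, 5 without D32 replicate 1 and 5 without D32 replicate 3.

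At the photoreceptor's output synapse, 10 of 23 ribbon synapse genes rose and 1 fell, with a median log2 fold change of 0.65. Cacna1f, the calcium channel that drives release at the ribbon, had 129.7, 112 and 133 CPM at D32, against 22 and 27.1 CPM at D25 (log2 change 2.34 ± 0.41 SE, edgeR adjusted p = 0.00112). Cplx4, the complexin of ribbon synapses, had 88.8, 61.5 and 81.7 CPM at D32, against 15.1 and 10.0 CPM at D25 (log2 change 2.62 ± 0.45 SE, edgeR adjusted p = 9.77e-04). The D32 libraries of both were all above D25. Cacna2d4, an accessory subunit of that channel, rose by 1.2 ± 0.24 (SE, edgeR adjusted p = 0.00247), Syt1, a calcium sensor of vesicle fusion, by 1.03 ± 0.18 (SE, edgeR adjusted p = 0.00112), and Slc17a7, the vesicular glutamate transporter VGLUT1, by 1.67 ± 0.39 (SE, edgeR adjusted p = 0.00967). The gene that fell, Rims1, and Cabp4, which rose, have values identical to those of another gene in the table in every library, so their own levels are uncertain. Among 41 general presynaptic genes 6 rose and 1 fell, and all that rose but Napb are ribbon synapse genes as well. The ribbon synapse count was 4 without D25 replicate 1 and 3 without D25 replicate 2, and the presynaptic count 3 without D25 replicate 1 and 2 without D25 replicate 2. Cacna1f, Cplx4 and Syt1 kept the edgeR call in each of the 5 fits that left out 1 library. No call was made for Cacna2d4 and Slc17a7 without either D25 library and for Napb without D25 replicate 2, with adjusted p up to 0.129.

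Cone genes moved in both directions. Of 18 tested, 3 rose and 4 fell, with a median log2 fold change of 0.39. The 3 that rose, Gnb5, Grk1 and Cplx4, are used by rods too. The 4 that fell were Ccdc136, Opn1sw, Cngb3 and Rxrg. Opn1sw, the short-wavelength cone opsin, had 29, 8.6 and 22.8 CPM at D32, against 101 and 94.7 CPM at D25, a change on the log2 scale of -2.28 ± 0.52 (SE, edgeR adjusted p = 0.00805), with every D32 library below both D25 libraries. Its neighbour Ccdc136, a coiled-coil gene, had 123, 109 and 115 CPM at D32, against 648 and 587 CPM at D25 (log2 change -2.41 ± 0.19 SE, edgeR adjusted p = 8.59e-07), and both days were even between replicates. In GENCODE M21 (GRCm38), Ccdc136 lies at chr6:29396309-29426994 on the plus strand and Opn1sw at chr6:29376671-29388468 on the minus strand. Cngb3, the beta subunit of the cone channel, fell by 1.76 and Rxrg, a retinoid receptor of young cones, by 1.42 on the log2 scale (edgeR adjusted p = 0.0128 and 0.0178). The other opsin, Opn1mw, had 1.96, 3.5 and 1.46 CPM at D32, against 0.141 and 0 CPM at D25 and was not called (edgeR adjusted p = 0.11), with 2 counts in all at D25. Gnat2, cone transducin, was at -0.36 ± 0.50 (SE, edgeR adjusted p = 0.753), Arr3, cone arrestin, at 0.49 ± 0.42 (SE, edgeR adjusted p = 0.563), and Thrb, the thyroid hormone receptor that selects opsins, at 0.60 ± 0.30 (SE, edgeR adjusted p = 0.258), none of them called. The count that fell was 2 without D25 replicate 1 and 2 without D32 replicate 3. Leaving out any 1 of the 5 libraries did not end the edgeR call of Opn1sw and Ccdc136. The test was no longer passed for Cngb3 without D25 replicate 1 or D32 replicate 3 and for Rxrg with any library but D32 replicate 2 left out, with adjusted p up to 0.198.

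Several bipolar cell genes were close to 0 at D25 and clearly detected at D32. In the ON cascade, by which glutamate from photoreceptors gates a cation channel, 8 of 17 genes rose and none fell, with a median log2 fold change of 1.10 and a summed level of 1798 to 2053 CPM at D32, against 1149 and 1332 CPM at D25. Grm6, the receptor mGluR6 that starts the cascade, had 61.8, 62.7 and 63.8 CPM at D32, against 0.634 and 0.50 CPM at D25, a change on the log2 scale of 6.78 ± 0.67 (SE, edgeR adjusted p = 6.35e-06). Its D32 libraries agreed closely. Lrit3, which places the channel at the dendrite tip, had 32.7, 26.4 and 39.6 CPM at D32, against 9.86 and 9.81 CPM at D25 (log2 change 1.74 ± 0.30 SE, edgeR adjusted p = 0.00103), and Prkca, the rod bipolar kinase used as a marker, had 124, 120.3 and 112 CPM at D32, against 54.9 and 60.7 CPM at D25 (log2 change 1.04 ± 0.20 SE, edgeR adjusted p = 0.00181). Trpm1, the channel itself, had 23.2, 23.6 and 19.7 CPM at D32, against 6.34 and 4.31 CPM at D25 but missed the threshold (log2 change 2.06 ± 0.77 SE, edgeR adjusted p = 0.112). Gpr179, Nyx, Rgs9bp, Cacna1s and Strip2 were the other members that rose. The count was 3 without D25 replicate 1 and 4 without D25 replicate 2. With each of the 5 libraries left out in turn, edgeR still called Grm6 and Lrit3. Calls ended for Prkca without D25 replicate 1 and for Rgs9bp without D25 replicate 2, with adjusted p up to 0.0524.

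Among genes of bipolar fate and subtypes, 9 of 30 rose (30%) and 1, Slitrk5, fell (3.33%), with a median log2 fold change of 0.35. Of all genes, 3.72% rose and 4.54% fell. The change was positive in 18 and negative in 12. Every D32 library lay above both D25 libraries in 14 genes and below both in 7, against 25.5% and 23.9% of all genes. The list's summed level was lower at D32, with 1489 to 1526 CPM, against 2012 and 2064 CPM at D25. The list holds Otx2, whose levels are given above. Scgn, the calcium-binding protein secretagogin of cone bipolar cells, had 25.9, 24.5 and 28.8 CPM at D32, against 0.916 and 0.875 CPM at D25 (log2 change 4.87 ± 0.47 SE, edgeR adjusted p = 4.45e-06). Vsx1, a homeobox factor of cone bipolar subtypes, had 6.52, 5.59 and 5.9 CPM at D32, against 0.211 and 0.437 CPM at D25 (log2 change 4.16 ± 0.71 SE, edgeR adjusted p = 9.58e-04), and Kcng4, a potassium channel subunit of one such subtype, had 18.3, 10.3 and 17.2 CPM at D32, against 0.563 and 1.12 CPM at D25 (log2 change 4.15 ± 0.71 SE, edgeR adjusted p = 8.91e-04). All 3 were far higher in each D32 library. Gabrr1, a GABA-C receptor subunit of bipolar cells, had 24.4, 27.4 and 32.1 CPM at D32, against 0.0704 and 0.25 CPM at D25, where the D25 level rests on 5 counts (log2 change 7.35 ± 0.80 SE, edgeR adjusted p = 1.70e-05). Bhlhe23, a factor that rod bipolar cells need, had 18.9, 19.6 and 17.7 CPM at D32, against 0.0704 and 0 CPM at D25, with 822 counts in all at D32 and 1 at D25, so no fold is given (edgeR adjusted p = 3.42e-04). The 9 that rose became 5 without D25 replicate 1, and Slitrk5 was not called without D25 replicate 2 or D32 replicate 3. In all 5 fits with 1 library left out, Scgn, Vsx1, Kcng4, Gabrr1 and Bhlhe23 passed the edgeR test.

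Lists of early-born neurons of the inner retina held calls in both directions, beside 3.72% of all genes that rose and 4.54% that fell. Of 14 horizontal cell genes, Ndrg1 and Adra2a rose (14.3%) and Ptf1a fell (7.14%), with a median log2 fold change of 0.54. Ptf1a, the factor that commits cells to horizontal and amacrine fate, had 0.0633, 0 and 0.0728 CPM at D32, against 4.37 and 4.5 CPM at D25, 2 counts in all at D32 (edgeR adjusted p = 2.60e-05). Of the settled horizontal cell markers, Lhx1 (log2 change 0.62 ± 0.69 SE, edgeR adjusted p = 0.676) and Calb1 (log2 change 0.99 ± 0.36 SE, edgeR adjusted p = 0.0995) were not called. Of 30 amacrine genes, Rasgrp1 rose (3.33%) and Slc18a3 and Sox2 fell (6.67%), with a median of -0.22. Slc18a3, the vesicular transporter of cholinergic amacrine cells, had 1.01, 0.14 and 0.437 CPM at D32, against 5.07 and 9.81 CPM at D25 (log2 change -3.78 ± 0.90 SE, edgeR adjusted p = 0.0116). The GABA and glycine amacrine markers Gad1 (log2 change 0.52 ± 0.34 SE, edgeR adjusted p = 0.412) and Slc6a9 (log2 change 0.02 ± 0.26 SE, edgeR adjusted p = 0.979) were not called, and neither was Pax6, which had 408, 401 and 367 CPM at D32, against 590.5 and 698 CPM at D25 (log2 change -0.72 ± 0.28 SE, edgeR adjusted p = 0.135). Ptf1a, Rasgrp1 and Sox2 kept the edgeR call in each of the 5 fits that left out 1 library. The threshold was missed for Ndrg1 whichever library was left out, for Adra2a without D25 replicate 1 and for Slc18a3 without D25 replicate 2, D32 replicate 2 or D32 replicate 3, with adjusted p up to 0.25.

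Of 23 ganglion cell genes, Nefh rose and 5 fell (Atoh7, Tubb3, Pou4f3, Stmn2 and Dcx), with a median log2 fold change of -0.43. The shares were 4.35% and 21.7%, against 3.72% and 4.54% of all genes. Atoh7, which makes progenitors competent for ganglion cell fate, had 1.2, 0.629 and 0.364 CPM at D32, against 5.56 and 5.0 CPM at D25 (log2 change -2.81 ± 0.56 SE, edgeR adjusted p = 0.00277). Tubb3, the tubulin of young neurons, had 113, 114 and 99.5 CPM at D32, against 205 and 308 CPM at D25 (log2 change -1.24 ± 0.31 SE, edgeR adjusted p = 0.0153). Both were lower in every D32 library. The ganglion cell factors Pou4f2 (log2 change -1.93 ± 0.84 SE, edgeR adjusted p = 0.183) and Rbpms (log2 change -0.77 ± 0.38 SE, edgeR adjusted p = 0.259) were not called. The count that fell was 2 without D25 replicate 1, 1 without D25 replicate 2, 2 without D32 replicate 1, 3 without D32 replicate 2 and 2 without D32 replicate 3, and Nefh was not called without either D25 library. Leaving out any 1 of the 5 libraries did not end the edgeR call of Atoh7. No call was made for Tubb3 without D25 replicate 2 or D32 replicate 3, for Nefh without either D25 library, for Dcx whichever library was left out, for Pou4f3 with any library but D32 replicate 3 left out and for Stmn2 with any library but D32 replicate 2 left out, with adjusted p up to 0.294.

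Müller glia genes were called mainly in the higher direction. Of 35 tested, 11 rose and 2 fell, with a median log2 fold change of 0.53 and a summed level of 4462 to 4714 CPM at D32, against 3476 and 3946 CPM at D25. Rlbp1, the retinaldehyde-binding protein CRALBP, had 174, 139 and 179.6 CPM at D32, against 53.6 and 59.1 CPM at D25, a change on the log2 scale of 1.54 ± 0.29 (SE, edgeR adjusted p = 0.00192). Car2, a carbonic anhydrase, had 201, 163 and 189 CPM at D32, against 57.8 and 63.2 CPM at D25 (log2 change 1.61 ± 0.21 SE, edgeR adjusted p = 7.61e-05), and Slc16a1, the lactate transporter MCT1, had 58.8, 75.9 and 75.7 CPM at D32, against 18.2 and 15.7 CPM at D25 (log2 change 2.05 ± 0.38 SE, edgeR adjusted p = 0.0016). In all 3 the groups did not overlap. Slc1a3, the glutamate transporter GLAST, rose by 1.57 ± 0.37 (SE, edgeR adjusted p = 0.0111), Kcnj10, the potassium channel Kir4.1, by 2.44 ± 0.54 (SE, edgeR adjusted p = 0.00629), and Crym, a thyroid hormone-binding protein, by 1.73 ± 0.25 (SE, edgeR adjusted p = 2.21e-04). Aqp4, the water channel of glial endfeet, had 15.9, 24.4 and 13 CPM at D32, against 2.61 and 2.0 CPM at D25 (log2 change 2.95 ± 0.85 SE, edgeR adjusted p = 0.0364). Glul, glutamine synthetase, had 246, 235 and 231 CPM at D32, against 265 and 279.5 CPM at D25 and was not called (log2 change -0.20 ± 0.19 SE, edgeR adjusted p = 0.615), and Sox9, which maintains glial fate, had 13.7, 12.3 and 11.9 CPM at D32, against 21.6 and 29.5 CPM at D25 (log2 change -1.01 ± 0.34 SE, edgeR adjusted p = 0.0712). The 2 members that fell, Hes5 and Sox2, are progenitor genes as well. The count that rose was 3 without D25 replicate 1, 4 without D25 replicate 2, 7 without D32 replicate 1, 7 without D32 replicate 2 and 7 without D32 replicate 3. With each of the 5 libraries left out in turn, edgeR still called Car2, Slc16a1 and Crym. The test was no longer passed for Rlbp1 without D25 replicate 1, for Slc1a3 and Kcnj10 without either D25 library and for Aqp4 whichever library was left out, with adjusted p up to 0.296.

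Stress and reactivity genes were also higher at D32. Of 29 reactive glia and inflammation genes, 10 rose and none fell, with a median log2 fold change of 1.88 and a summed level of 772.5 to 857.2 CPM at D32, against 381.7 and 461.5 CPM at D25. Gfap, the intermediate filament of reactive glia, had 24.8, 74.5 and 19.9 CPM at D32, against 1.69 and 0.687 CPM at D25 (log2 change 5.07 ± 1.11 SE, edgeR adjusted p = 0.00649). D32 replicate 2 was well above the other D32 libraries, and all 3 were above both D25 libraries. Fgf2, a growth factor that photoreceptors and Müller glia make under stress, had 87.1, 84.2 and 106 CPM at D32, against 2.39 and 1.00 CPM at D25 (log2 change 5.77 ± 1.27 SE, edgeR adjusted p = 0.00706). Edn2, endothelin 2, which stressed photoreceptors release, had 6.9, 2.45 and 4.22 CPM at D32, against 0.141 and 0.0625 CPM at D25, 3 counts in all at D25 (edgeR adjusted p = 0.00532). Lif, the cytokine that signals from Müller glia to photoreceptors, had 5.69, 2.59 and 1.97 CPM at D32, against 0 and 0.125 CPM at D25, 2 counts in all at D25 (adjusted p = 0.0129). Downstream of such cytokines, Stat3 had 189, 132 and 151 CPM at D32, against 54.9 and 51.9 CPM at D25 (log2 change 1.56 ± 0.34 SE, edgeR adjusted p = 0.00612) and Bcl3, a partner of NF-kappaB, had 7.47, 3.36 and 4.8 CPM at D32, against 0 and 0.0625 CPM at D25 (adjusted p = 0.00109), while Socs3, the feedback inhibitor that STAT3 induces, had 26.7, 13.2 and 11.9 CPM at D32, against 11.6 and 17.5 CPM at D25 and overlapped between days (log2 change 0.25 ± 0.40 SE, edgeR adjusted p = 0.791). The Socs3 change turned negative without D25 replicate 1 or D32 replicate 1. The list's count rested on both D25 libraries, being 2 without D25 replicate 1 and 2 without D25 replicate 2. In all 5 fits with 1 library left out, Bcl3 passed the edgeR test. Calls ended for Gfap, Fgf2, Edn2, Lif and Stat3 without either D25 library, with adjusted p up to 0.14.

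**Figure D2:**
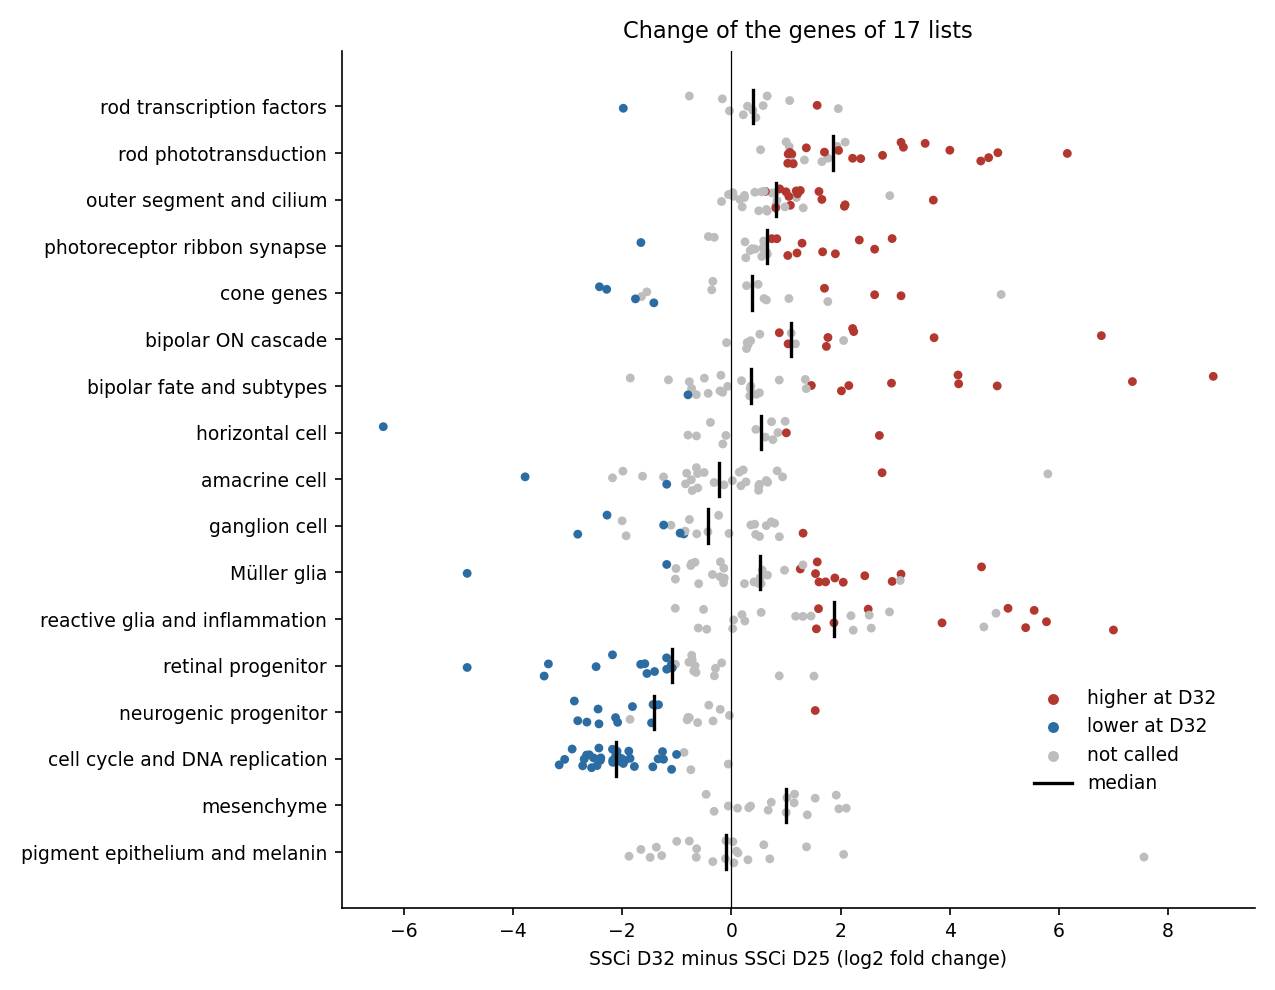
Each point is 1 tested gene of 17 lists (rows), placed on the x axis by SSCi D32 minus SSCi D25 (log2 fold change), in red where it rose, blue where it fell and grey where edgeR did not call it; the black bar is the list's median. The medians run from -2.10 for cell cycle genes to 1.88 for reactive glia genes, and none of the mesenchyme or pigment epithelium genes was called.

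**Figure D3:**
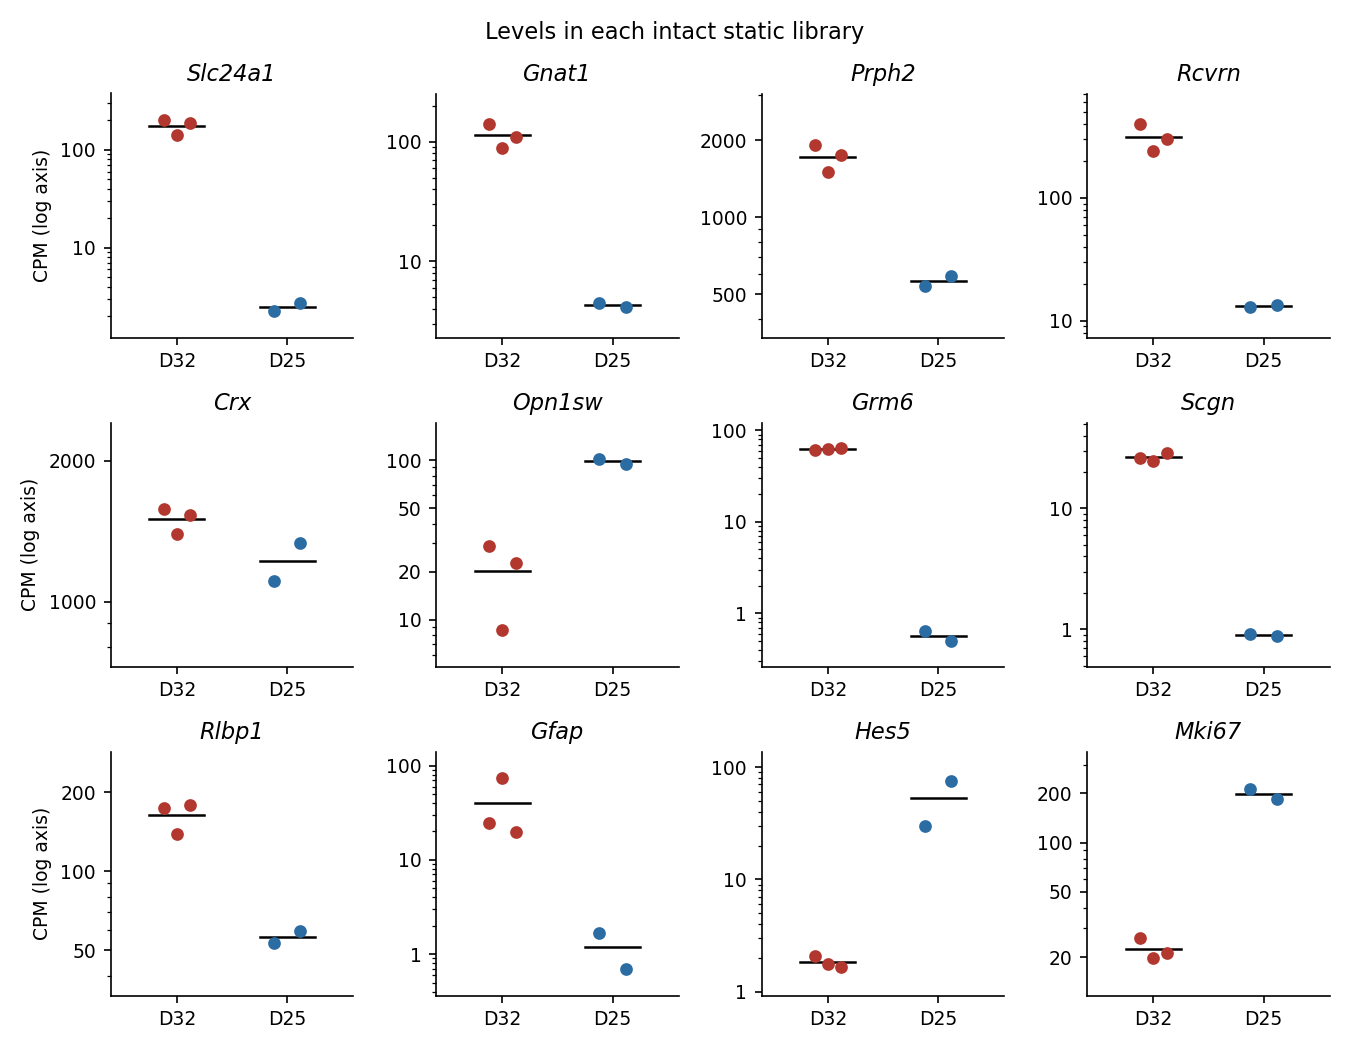
CPM on a log axis in each of the 3 D32 libraries (red) and 2 D25 libraries (blue) for 12 genes, with a bar at the group mean; the axes have different ranges. Grm6 sits at 61.8 to 63.8 CPM at D32, against 0.634 and 0.50 CPM at D25, whereas Crx differs little.

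Progenitor genes were lower at D32. Of 25 retinal progenitor genes 13 fell and none rose (52%, against 4.54% of all genes), with a median log2 fold change of -1.08 and a summed level of 1329 to 1442 CPM at D32, against 2246 and 3229 CPM at D25. Hes5, a Notch target that holds progenitors undifferentiated, had 2.09, 1.75 and 1.67 CPM at D32, against 29.8 and 75.8 CPM at D25, a change on the log2 scale of -4.84 ± 0.70 (SE, edgeR adjusted p = 2.02e-04). Fgf15, a growth factor made by progenitors, had 4.05, 3.71 and 4.73 CPM at D32, against 41.4 and 43.5 CPM at D25 (log2 change -3.35 ± 0.57 SE, edgeR adjusted p = 8.41e-04), and Ccnd1, the retina's main D cyclin, had 73.7, 71.2 and 79.8 CPM at D32, against 308 and 368 CPM at D25 (log2 change -2.18 ± 0.22 SE, edgeR adjusted p = 1.02e-05). No D32 library reached a D25 library in any of the 3. The homeobox factors Rax and Lhx2 had uneven D25 libraries: Rax had 82, 51.2 and 61.2 CPM at D32, against 99 and 279 CPM at D25 (log2 change -1.54 ± 0.47 SE, edgeR adjusted p = 0.0488) and Lhx2 had 27, 23.2 and 21 CPM at D32, against 51.2 and 98.8 CPM at D25 (log2 change -1.66 ± 0.37 SE, edgeR adjusted p = 0.00706). Sox2, a factor of neural progenitors kept in Müller glia, had 12.3, 15.7 and 14.2 CPM at D32, against 30.4 and 33.3 CPM at D25 (log2 change -1.18 ± 0.21 SE, edgeR adjusted p = 0.00123). The count that fell was 6 without D25 replicate 2. Hes5, Fgf15, Ccnd1 and Sox2 kept the edgeR call in each of the 5 fits that left out 1 library. Significance was lost for Rax with any library but D25 replicate 1 left out and for Lhx2 without D25 replicate 2, with adjusted p up to 0.741.

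In the neurogenic list, of progenitors that are leaving the cycle, 12 of 22 genes fell and Gadd45a rose, with a median log2 fold change of -1.41. Neurog2, a proneural factor, had 13.8, 16 and 16.9 CPM at D32, against 81.8 and 85.2 CPM at D25 (log2 change -2.42 ± 0.22 SE, edgeR adjusted p = 3.37e-06). Foxn4, which is on the retinal progenitor list and not on this one, biases progenitors to amacrine and horizontal fate. Foxn4 had 2.85, 3.08 and 4.22 CPM at D32, against 28 and 44.7 CPM at D25 (log2 change -3.43 ± 0.52 SE, edgeR adjusted p = 2.98e-04). In each, the highest D32 library was several times below the lowest D25 library. The Notch ligand Dll4 fell with them (log2 change -2.64 ± 0.41 SE, edgeR adjusted p = 3.32e-04), and so did the Notch targets Heyl (log2 change -3.81 ± 0.46 SE, edgeR adjusted p = 4.68e-05) and Nrarp (log2 change -1.63 ± 0.22 SE, edgeR adjusted p = 1.14e-04). Not all Notch genes fell. The ligand Jag1, which is not on this list, rose by 1.83 ± 0.56 (SE, edgeR adjusted p = 0.0485), a call lost whichever of the 5 libraries was left out. Hey2, a relative of Heyl, was called higher too, but not in every fit that left out 1 library. Sox4, a factor of newborn neurons, had 204, 216 and 226 CPM at D32, against 543 and 581 CPM at D25 (log2 change -1.38 ± 0.20 SE, edgeR adjusted p = 2.31e-04). Leaving out any 1 of the 5 libraries did not end the edgeR call of Neurog2, Foxn4, Dll4, Heyl, Nrarp and Sox4. The threshold was missed for Gadd45a without D25 replicate 1, with adjusted p up to 0.0882.

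Cell cycle genes fell almost throughout. Of 36 genes 33 fell (91.7%, against 4.54% of all genes) and none rose, with a median log2 fold change of -2.10 and a summed level of 550.9 to 639.2 CPM at D32, against 2220 and 2287 CPM at D25. Of those calls, 32 were kept whichever of the 5 libraries was left out. Mki67, the proliferation marker Ki-67, had 26.1, 19.6 and 21.3 CPM at D32, against 213 and 184 CPM at D25 (log2 change -3.15 ± 0.43 SE, edgeR adjusted p = 1.34e-04). Ccnb1, a mitotic cyclin, had 6.07, 5.31 and 5.97 CPM at D32, against 46.8 and 49.3 CPM at D25 (log2 change -3.05 ± 0.34 SE, edgeR adjusted p = 2.01e-05), and its kinase Cdk1 had 13.2, 6.64 and 9.97 CPM at D32, against 53.2 and 56.3 CPM at D25 (log2 change -2.46 ± 0.43 SE, edgeR adjusted p = 0.00103). Mcm5, a subunit of the replicative helicase, had 9.43, 5.66 and 9.03 CPM at D32, against 34.4 and 36.7 CPM at D25 (log2 change -2.14 ± 0.32 SE, edgeR adjusted p = 2.34e-04). In all of these every D32 library was below both D25 libraries. Ccne1, Ccne2 and Pcna were the members not called, Pcna with 78.9, 72.7 and 74.8 CPM at D32, against 136 and 116 CPM at D25 (log2 change -0.74 ± 0.34 SE, edgeR adjusted p = 0.207). Kif11 fell too, but its values equal those of another gene in the table in all libraries. Uhrf1 and Dnmt3b, which maintain and add DNA methylation, were the 2 of 19 methylation and Polycomb genes that fell, and 1 of them was called with any 1 of the 5 libraries left out.

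Promoters of cell cycle genes are known for CCAAT boxes, which the factor NF-Y binds. CCAAT, searched on both strands of the same 300-base windows, was in 25 of 30 cell cycle genes with a promoter in the table (83.3%) and in 24 of the 28 that fell (85.7%), against 42.7% of tested genes and 37.4% of all promoters. The promoters of Ccnb2, a mitotic cyclin (chr9:70421505-70421804, minus strand), and Ube2c, the ubiquitin-conjugating enzyme of the anaphase-promoting complex (chr2:164769679-164769978, plus strand), are shown for their several copies: 3 in Ccnb2, starting 87, 54 and 21 bases before the start, and 6 in Ube2c, 3 on each strand, of which a pair overlaps. Capitals mark CCAAT or its reverse complement.
Ccnb2: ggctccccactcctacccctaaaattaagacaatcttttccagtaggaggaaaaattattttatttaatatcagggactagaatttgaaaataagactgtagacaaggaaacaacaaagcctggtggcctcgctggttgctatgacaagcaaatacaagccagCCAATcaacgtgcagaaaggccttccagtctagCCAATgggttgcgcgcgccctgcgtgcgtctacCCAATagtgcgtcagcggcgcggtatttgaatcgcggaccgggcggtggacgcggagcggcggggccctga
Ube2c: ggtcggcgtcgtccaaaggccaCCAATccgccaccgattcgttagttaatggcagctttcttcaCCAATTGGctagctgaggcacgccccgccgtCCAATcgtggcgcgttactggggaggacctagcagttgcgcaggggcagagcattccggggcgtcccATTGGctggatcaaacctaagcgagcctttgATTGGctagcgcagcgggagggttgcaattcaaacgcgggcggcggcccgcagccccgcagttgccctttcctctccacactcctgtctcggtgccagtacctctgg
Ccnb2 had 4.11, 2.38 and 3.49 CPM at D32, against 20.4 and 17.9 CPM at D25 (log2 change -2.52 ± 0.34 SE, edgeR adjusted p = 1.14e-04). Ube2c had 3.29, 2.66 and 3.35 CPM at D32, against 17.5 and 19.1 CPM at D25 (log2 change -2.56 ± 0.26 SE, edgeR adjusted p = 1.02e-05). Both fell in each of the 3 D32 libraries to less than the lower D25 library, and the calls were kept whichever of the 5 libraries was left out. The sterol response element TCACNCCAC was in 1 of 17 sterol synthesis promoters (5.88%), against 1.39% of tested genes. The CArG element was in 8 of 32 serum response promoters (25%), against 1.69%, but in 0 of the 3 that rose and 0 of the 1 that fell.

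Most genes that answer to serum, lipid and amino acid supply were not called, which holds for all genes too: 3.72% rose and 4.54% fell. Of 42 serum response and immediate early genes, Atf3, Fosb and Fosl2 rose (7.14%) and Ier5 fell (2.38%), with a median log2 fold change of 0.37. Fos, an immediate early gene of the serum response, had 139, 72.3 and 46.7 CPM at D32, against 16.6 and 23.6 CPM at D25 and was not called (log2 change 2.10 ± 0.77 SE, edgeR adjusted p = 0.103), its D32 libraries being uneven. In sterol synthesis, 4 of 25 genes (16%) fell (Acat2, Hmgcs1, Nsdhl and Fdps) and none rose, with a median of -0.37. Hmgcs1, the enzyme that starts the pathway, had 217, 220.4 and 215 CPM at D32, against 468 and 379.8 CPM at D25 (log2 change -0.96 ± 0.20 SE, edgeR adjusted p = 0.00415), and Acat2, which supplies its substrate and has a near-identical copy, Acat3, that may share reads, had 57.6, 54.2 and 55.9 CPM at D32, against 113 and 107 CPM at D25 (log2 change -0.97 ± 0.18 SE, edgeR adjusted p = 0.00192). In both, each D32 library was below both D25 libraries. Of 19 export and carriage genes, Lpl rose and Npc2 fell (5.26% each), and Abca1 was not called (log2 change 0.48 ± 0.61 SE, edgeR adjusted p = 0.723). None of 23 fatty acid synthesis genes was called. Vldlr, the very-low-density lipoprotein receptor, was 1 of 4 of 29 fatty acid import and oxidation genes that rose (log2 change 1.23 ± 0.23 SE, edgeR adjusted p = 0.00153), and Acads, a short-chain acyl-CoA dehydrogenase, 1 of 3 that fell (log2 change -2.01 ± 0.32 SE, edgeR adjusted p = 4.92e-04). Of the fatty acid import and oxidation genes, 13.8% rose and 10.3% fell. Of 39 serine synthesis and ATF4 genes, Vldlr, Ddit3, Atf3 and Cars rose (10.3%) and Shmt1 fell (2.56%), while Phgdh (log2 change -0.48 ± 0.29 SE, edgeR adjusted p = 0.374) and Asns (log2 change 0.71 ± 0.26 SE, edgeR adjusted p = 0.102) were not called. With each of the 5 libraries left out in turn, edgeR still called Acat2, Vldlr and Acads. No call was made for Hmgcs1 and Ddit3 without D25 replicate 1, for Fdps, Nsdhl, Npc2 and Fosl2 whichever library was left out, for Lpl without D25 replicate 1, D25 replicate 2 or D32 replicate 2, for Atf3 without D25 replicate 2, for Cars without D25 replicate 2 or D32 replicate 2, for Fosb without D25 replicate 1, D25 replicate 2 or D32 replicate 1 and for Ier5 with any library but D25 replicate 1 left out, with adjusted p up to 0.331. With any 1 of the 5 libraries left out, the sterol genes that fell numbered 1 or 2 and the fatty acid oxidation genes that rose 1 or 2, and no serum response gene rose without D25 replicate 2.

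Most energy genes were not called, but most glycolysis and hypoxia genes had a positive change. Of 25 glycolysis genes Hk1, Slc16a1 and Pfkfb2 rose (12%, against 3.72% of all genes) and none fell, with a median log2 fold change of 0.43. The change was positive in 24 of the 25. In 20 every D32 library lay above both D25 libraries, against 25.5% of all genes. Hk1, the hexokinase of neurons, had 664, 538 and 592 CPM at D32, against 175 and 210.3 CPM at D25 (log2 change 1.63 ± 0.26 SE, edgeR adjusted p = 4.27e-04). Of 22 other hypoxia targets and sensors, Epas1, Hmox1, Egln3, Ndrg1 and Hif1a rose (22.7%), with a median of 0.77. The change was positive in 20 of the 22, and in 17 every D32 library lay above both D25 libraries. Epas1, the hypoxia-inducible factor HIF-2 alpha, had 36.7, 27.1 and 30.2 CPM at D32, against 4.01 and 4.56 CPM at D25 (log2 change 2.87 ± 0.52 SE, edgeR adjusted p = 0.00128). Both genes had all D32 libraries above D25. Ppargc1a, the coactivator that drives mitochondrial genes, rose (log2 change 1.64 ± 0.36 SE, edgeR adjusted p = 0.00598), the only call among 37 nuclear respiratory chain genes, and none of 13 mitochondrially encoded genes was called. In all 5 fits with 1 library left out, Hk1 and Epas1 passed the edgeR test. The test was no longer passed for Ppargc1a without either D25 library, for Egln3 and Hif1a whichever library was left out, for Hmox1 without D25 replicate 1 and for Pfkfb2 without D25 replicate 1, D25 replicate 2 or D32 replicate 3, with adjusted p up to 0.511. The hypoxia count was 1 without D25 replicate 1, 2 without D25 replicate 2, 2 without D32 replicate 1, 2 without D32 replicate 2 and 2 without D32 replicate 3.

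In stress lists outside the glia, Cryab and Xbp1 rose of 25 heat shock and ER stress genes (8%). Bmf and Hrk rose of 28 p53 and apoptosis genes (7.14%) and H2-D1 of 30 MHC and interferon genes (3.33%). None fell in these lists, beside 3.72% of all genes that rose and 4.54% that fell. Cryab, the small heat shock protein also called alpha-B crystallin, had 42.3, 32 and 38.6 CPM at D32, against 3.24 and 2.75 CPM at D25 (log2 change 3.65 ± 1.07 SE, edgeR adjusted p = 0.0399), and H2-D1, an MHC class I chain of a family whose members may share reads, 153, 111 and 141 CPM at D32, against 44 and 54.3 CPM at D25 (log2 change 1.46 ± 0.36 SE, edgeR adjusted p = 0.0154). B2m, the MHC class I light chain, was not called (log2 change 0.02 ± 0.57 SE, edgeR adjusted p = 0.988). Calls ended for Cryab and Bmf whichever library was left out, for Xbp1 with any library but D32 replicate 1 left out, for Hrk without either D25 library and for H2-D1 without D25 replicate 1, D25 replicate 2 or D32 replicate 1, with adjusted p up to 0.398.

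Developmental signalling lists held calls in both directions. In the Hedgehog list, 4 of 13 genes fell (Gli1, Gli2, Gli3 and Smo) and Dhh rose. Gli1, the pathway's standard target gene, had 0.0633, 0 and 0 CPM at D32, against 0.986 and 0.625 CPM at D25, 1 count in all at D32 (edgeR adjusted p = 0.0198). Gli3, whose protein serves mainly as a repressor, had 9.11, 8.6 and 10.6 CPM at D32, against 36.2 and 40.0 CPM at D25 (log2 change -2.01 ± 0.42 SE, edgeR adjusted p = 0.00395), and Dhh, a Hedgehog ligand, had 4.49, 3.43 and 3.79 CPM at D32, against 0.493 and 0.437 CPM at D25 (log2 change 3.05 ± 0.71 SE, edgeR adjusted p = 0.00928). Each D32 library lay on one side of D25 in all 3. In the FGF list, Fgf2, Spry1 and Spry2 rose and Fgf15, Fgfr3, Dusp4 and Spred2 fell, of 27 genes, so that feedback inhibitors were found on both sides. Of 34 Wnt genes, Lgr5 and Frzb rose and Sfrp2, Nkd2, Notum, Tcf7 and Wnt5b fell, with a median log2 fold change of -0.19. Frzb, a secreted Wnt antagonist, had 13.9, 11.4 and 15 CPM at D32, against 3.59 and 3.62 CPM at D25 (log2 change 1.89 ± 0.33 SE, edgeR adjusted p = 0.00108), and Sfrp2, a secreted relative of it made by progenitors and the ciliary margin, had 6.39, 6.01 and 5.02 CPM at D32, against 24.8 and 39.9 CPM at D25 (log2 change -2.48 ± 0.53 SE, edgeR adjusted p = 0.00494). In the retinoid list, 3 genes rose, Dhrs3 and Rlbp1 among them, and Crabp1, Crabp2, Rbp4, Rarb and Rxrg fell, of 21 genes. Crabp1, a cellular retinoic acid-binding protein, had 74.1, 60.9 and 62.7 CPM at D32, against 107 and 157 CPM at D25 (log2 change -1.0 ± 0.24 SE, edgeR adjusted p = 0.0126). In the insulin and IGF list, Igf1 and Mest rose and Igfbpl1, Igfbp2 and Cdkn1c fell, of 18 genes. Igf1, whose protein the medium held, had 13.1, 16.5 and 12.5 CPM at D32, against 3.52 and 2.75 CPM at D25 (log2 change 2.16 ± 0.65 SE, edgeR adjusted p = 0.0454). Leaving out any 1 of the 5 libraries did not end the edgeR call of Gli3, Fgf15, Fgfr3, Dusp4 and Frzb. Significance was lost for Gli1 with any library but D32 replicate 1 left out, for Dhh, Fgf2 and Spry2 without either D25 library, for Spry1, Igf1, Gli2 and Rarb whichever library was left out, for Spred2, Nkd2 and Tcf7 with any library but D32 replicate 3 left out, for Sfrp2, Smo and Mest without D25 replicate 2, for Crabp1 and Wnt5b without D25 replicate 2, D32 replicate 2 or D32 replicate 3, for Lgr5 without D25 replicate 1, D25 replicate 2 or D32 replicate 3, for Notum, Dhrs3 and Igfbpl1 with any library but D32 replicate 2 left out, for Rlbp1 without D25 replicate 1, for Rbp4 without D25 replicate 2 or D32 replicate 1, for Igfbp2 with any library but D25 replicate 1 left out and for Cdkn1c without D25 replicate 2, D32 replicate 1 or D32 replicate 3, with adjusted p up to 0.506. Without D25 replicate 2, the genes that fell numbered 1 in the Hedgehog list, 0 in the Wnt list, 1 in the retinoid list and 0 in the insulin and IGF list, and no gene of the retinoid list rose without D25 replicate 1.

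The remaining neuronal and nuclear lists differed in their share of calls. Of 46 transmitter receptor genes 7 rose (15.2%, against 3.72% of all genes), Grm6 and Gabrr1 among them, and Grik3 fell. None of 27 neural splicing genes was called. Of 21 lamina and heterochromatin genes, Sun1 rose and H1f0, Lmnb1, Hmgb2, Cbx1 and H1fx fell (23.8%, against 4.54% of all genes). Lmnb1, lamin B1, had 81.4, 64 and 74 CPM at D32, against 171 and 185 CPM at D25 (log2 change -1.28 ± 0.21 SE, edgeR adjusted p = 5.79e-04), and Hmgb2, a chromatin protein of dividing cells, had 19.6, 17.8 and 14.8 CPM at D32, against 71.3 and 104 CPM at D25 (log2 change -2.33 ± 0.45 SE, edgeR adjusted p = 0.00213). The lamina genes that fell numbered 3 without D25 replicate 2 or any 1 D32 library. The receptor count was 3 without D25 replicate 1 and 3 without D25 replicate 2. With each of the 5 libraries left out in turn, edgeR still called Lmnb1 and Hmgb2. The threshold was missed for Sun1 without D25 replicate 1, for Cbx1 whichever library was left out, for H1fx with any library but D25 replicate 1 left out, for Grik3 without D25 replicate 2 and for Tbx3 with any library but D32 replicate 2 left out, with adjusted p up to 0.483. Of 17 dorsal and ventral retina genes only Tbx3 was called, and it fell (5.88%, against 4.54% of all genes).

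Markers of cells outside the neural retina were measured in the same libraries, and their part in the results was not tested. None of 17 mesenchyme genes was called, with a median log2 fold change of 1.00 and a summed level of 56.91 to 90.2 CPM at D32, against 35.41 and 38.36 CPM at D25. Col1a2, a fibrillar collagen chain, had 10.2, 7.13 and 3.28 CPM at D32, against 1.69 and 1.81 CPM at D25 (log2 change 1.97 ± 1.46 SE, edgeR adjusted p = 0.491). Among 46 collagen and matrix genes, Col9a1 rose and Fbln1 and Vcan fell. None of 22 pigment epithelium genes was called, and their summed level was 669.8 to 713.2 CPM at D32, against 1039 and 1039 CPM at D25. Otx2, a gene of photoreceptors and bipolar cells as well, is on this list and on the choroid plexus list. Its level, given above, made up most of both sums, so they do not measure these cells. Rpe65, the isomerase that defines the pigment epithelium, had 2 counts in all at D32 and 0 at D25. Of 18 ciliary margin genes, Col9a1 rose and Zic1, Zic2, Cdh1 and Sfrp2 fell, and of 11 lens genes Cryab rose, with a summed level of 157.5 to 169.6 CPM at D32, against 72.06 and 88.76 CPM at D25. The ciliary margin genes that fell numbered 1 without D25 replicate 2. Surface epithelium (15 genes) had 1 call, Cdh1, which fell, and choroid plexus (15 genes) had 1, Rsph1, which fell, with a summed level of 693.6 to 733.7 CPM at D32, against 1002 and 1040 CPM at D25. Of 26 genes of other brain regions, 3 fell, Olig2 and Dlx2 among them. Of 13 microglia, blood and endothelium genes, Flt1 rose and C1qa and Cldn5 fell, with a summed level of 210.5 to 265.3 CPM at D32, against 260.5 and 284.4 CPM at D25, and C1qb, C1qc and Tyrobp were at 0 in all 5 libraries. None of 9 pluripotency genes was called, with a summed level of 25.33 to 33.59 CPM at D32, against 14.72 and 16.42 CPM at D25. Ttr, transthyretin, made by choroid plexus and pigment epithelium, had 0.569, 41.2 and 0.218 CPM at D32, against 0.0704 and 0.0625 CPM at D25, with 1 count in each D25 library, and was high in D32 replicate 2 alone, so no fold is given (edgeR adjusted p = 0.263). In all 5 fits with 1 library left out, Zic2, Rsph1 and C1qa passed the edgeR test. No call was made for Col9a1 and Flt1 without either D25 library, for Zic1 and Fbln1 with any library but D25 replicate 1 left out, for Vcan with any library but D32 replicate 3 left out, for Cryab whichever library was left out, for Cdh1 without D25 replicate 2 or D32 replicate 3, for Cldn5 without D25 replicate 2, D32 replicate 2 or D32 replicate 3 and for Dlx2 with any library but D32 replicate 2 left out, with adjusted p up to 0.764.

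Dissected static cultures had received serum and supplements since D18, so their step from D22 to D28 held no change of medium, and the intact step was set against it. The steps share no library, but days, interval and dissection differ between them. Of the 624 genes that rose in SSCi, 601 (96.3%) had a positive change in SSCd and 254 were called there too, 40.7% of the intact and 50.5% of the 503 dissected calls (3% of genes tested). Of the 762 that fell, 740 (97.1%) had a negative change in SSCd and 484 were called there too, 63.5% of the intact and 57.1% of the 848 dissected calls (5.05%). The genes that rose had a median log2 fold change of 1.45 in SSCi, where they were chosen, and 0.82 in SSCd, and those that fell had -1.36 and -1.03. Tested as a difference between the steps, the change differed for 7 of 16792 genes (0.0417%), with 664 at an unadjusted p under 0.05 (3.95%). In it 5 genes had a higher change in SSCi (Hr, Klf9, Slc24a1, Slc39a8 and Dbp) and 2 a lower one (Ccdc136 and Pnoc).

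**Figure D4:**
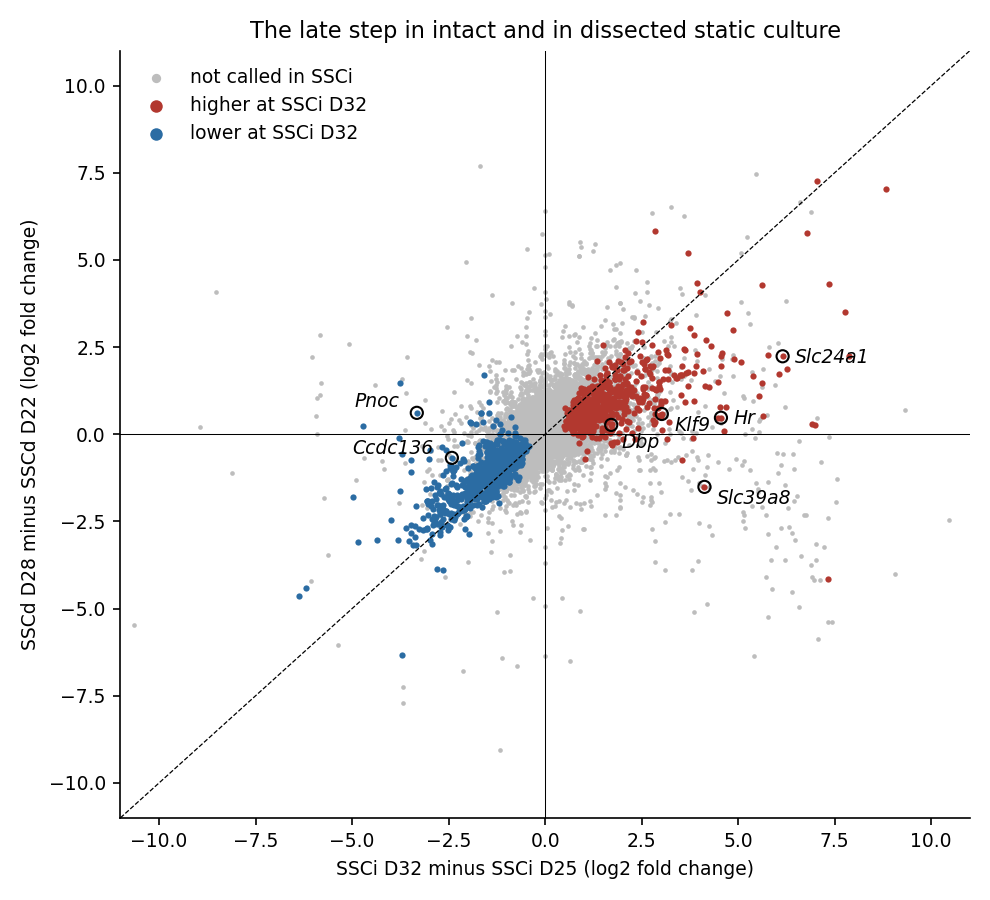
Each point is 1 of 16792 genes, with SSCi D32 minus SSCi D25 (log2 fold change) on the x axis and SSCd D28 minus SSCd D22 (log2 fold change) on the y axis; colours are the edgeR calls of the intact step and the dashed line marks equal change. Most coloured points lie in the same quadrant for both steps, and the 7 ringed genes are those whose difference passed the test, such as Hr at 4.56 in SSCi and 0.47 in SSCd.

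Hr (hairless), a corepressor that thyroid hormone is known to induce in brain, had 71.5, 64 and 64.7 CPM at D32, against 2.47 and 3.19 CPM at D25, a change on the log2 scale of 4.56 ± 0.50 (SE, edgeR adjusted p = 1.70e-05). In SSCd it had 132, 70.1 and 100.4 CPM at D28, against 62.4, 70.0 and 85 CPM at D22, a change of 0.47, and the difference between the steps was 4.08 ± 0.58 (SE, edgeR adjusted p = 0.00906). At D18 it was low in all libraries, with 4.41 and 3.11 CPM in SSCi, 0.441, 2.77 and 2.23 CPM in SSCd and 1.93 and 3.71 CPM in RWB. Klf9, a Krüppel-like factor known to answer to thyroid and glucocorticoid hormones, had 106, 103 and 118 CPM at D32, against 13.9 and 12.9 CPM at D25 (log2 change 3.02 ± 0.34 SE, edgeR adjusted p = 2.01e-05), and its difference was 2.44 ± 0.41 (SE, edgeR adjusted p = 0.0278). In SSCd, Klf9 had 126, 98.5 and 85.5 CPM at D28 and 91.1, 66.5 and 49.7 CPM at D22, all above its SSCi D25 level. Dbp, a clock-controlled factor, had 34.1, 33.5 and 32.7 CPM at D32, against 8.8 and 11.6 CPM at D25 (log2 change 1.71 ± 0.20 SE, edgeR adjusted p = 2.60e-05), with a difference of 1.44 ± 0.25 (SE, edgeR adjusted p = 0.0341). Slc24a1 also rose in SSCd, with 215, 161 and 64.4 CPM at D28, against 49.8, 27.9 and 15.9 CPM at D22, and the difference was 3.92 ± 0.60 (SE, edgeR adjusted p = 0.0151). Slc39a8, a zinc and manganese transporter, had 31 counts in all at D32 and 1 at D25, so no size is given for its difference, which passed edgeR's test with an adjusted p of 0.0231.

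On the other side, Ccdc136 had 192, 171 and 169 CPM at D28 in SSCd, against 238, 306 and 306 CPM at D22, a smaller fall than in SSCi, with a difference of -1.74 ± 0.25 (SE, edgeR adjusted p = 0.00906). Pnoc, the precursor of the neuropeptide nociceptin, had 1.01, 0.979 and 0.728 CPM at D32, against 7.82 and 10.5 CPM at D25 (log2 change -3.32 ± 0.50 SE, edgeR adjusted p = 2.58e-04), whereas in SSCd it had 6.5, 6.94 and 4.65 CPM at D28, against 4.99, 3.59 and 3.24 CPM at D22, and the difference was -3.94 ± 0.65 (SE, edgeR adjusted p = 0.0231). Its groups did not overlap in SSCi. With either D25 library left out, edgeR called no gene in this test of the difference, with 562 and 516 genes at an unadjusted p under 0.05 without D25 replicates 1 and 2. DESeq2 called 35 genes on all libraries. Same-numbered SSCd D28 and D22 libraries deviated together from their group means; with the replicate number as a block in these libraries the same 7 genes were called, and with it as a block in all 24 libraries 13 genes were. Mitochondrially encoded genes took 8.26% of the counts in SSCd D22 replicate 1, against 2.87% to 3.77% in the other SSCd D28 and D22 libraries, and without that library 5 genes were called.

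**Figure D5:**
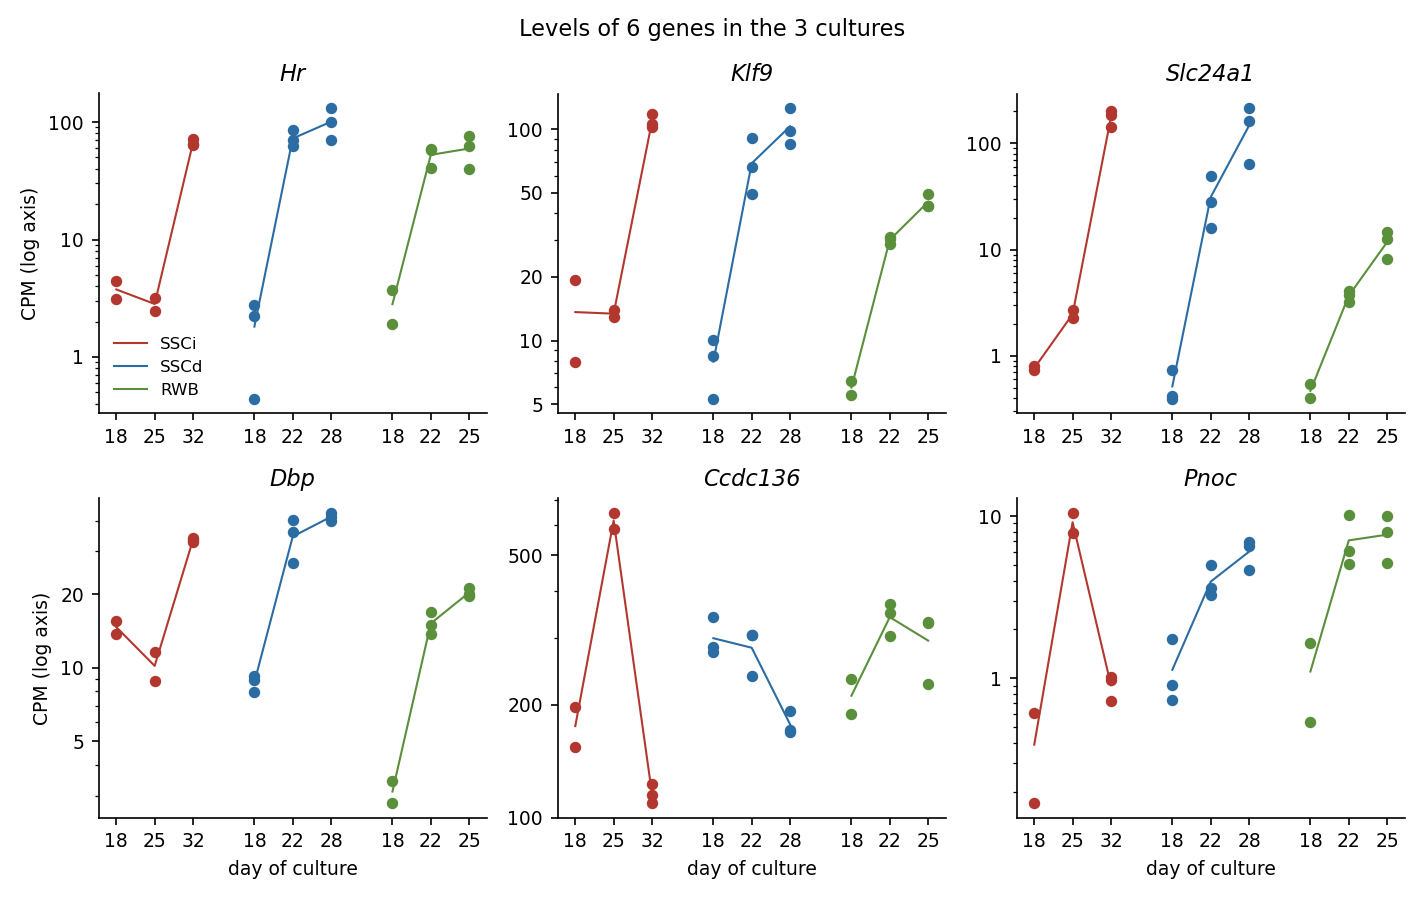
CPM on a log axis against day of culture for 6 of the 7 genes, with a point per library and lines through the group means of intact static (SSCi, red), dissected static (SSCd, blue) and bioreactor (RWB, green) cultures. Hr and Klf9 are low at D18 and D25 in SSCi and at D18 in SSCd and RWB, and high in the later groups.

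Over all 24 libraries, the 15 taken after the richer medium had begun were compared with the 9 at or before it, counting D18 of SSCd and RWB as before. In 51 genes (0.304%) the 15 later libraries all lay above the 9 earlier ones, and 28 of the 51 rose in SSCi, Hr, Klf9, Slc24a1, Car2, Lrit3, Ddit3 and Gfap among them. In 54 genes (0.322%) they all lay below, and 30 of the 54 fell in SSCi, Ccnd1, Zic2, E2f1, Lig1 and Sfrp2 among them. Both sets were chosen with the SSCi D32 and D25 libraries included, so none of their genes overlapped between these days. The SSCi calls among them therefore give no separate support. Of all genes tested, 3.72% rose and 4.54% fell in SSCi. The later libraries are also the older ones within each culture. Genes of thyroid hormone handling, looked at because of Hr and Klf9 and so chosen after values were seen, were mixed: Dio2, the activating deiodinase, had 6.58, 6.5 and 3.71 CPM at D32, against 0.704 and 0.687 CPM at D25 (log2 change 2.99 ± 0.77 SE, edgeR adjusted p = 0.0189), while Dio3, the inactivating one, was at 0.45 ± 0.90 (SE, edgeR adjusted p = 0.839), and Thra, a thyroid hormone receptor gene, at -0.24 ± 0.23 (SE, edgeR adjusted p = 0.618). The test was no longer passed for Dio2 without either D25 library, with adjusted p up to 0.189. The sign of the Dio3 change turned without D32 replicate 3.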

How the data were processed

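Polyadenylated RNA of 24 mouse retinal organoid libraries was sequenced. The authors deposited a table of estimated counts per gene, keyed by Ensembl ID, for 33846 genes; 42.1% of its values are whole numbers. The submitters' processing notes list the build GRCm38.p5 with limma 3.32.2, edgeR 3.13.9 and kallisto 0.42.5, without saying which step each served. Values were rounded to whole numbers and fitted with edgeR 4.0.16 in R 4.3.3: 9 group means over 24 libraries, filterByExpr by group (16792 genes tested), TMM scaling, a robust quasi-likelihood F-test and Benjamini-Hochberg adjustment over all genes tested, with a threshold of 0.05. The median biological coefficient of variation was 0.276. CPM values of single genes use TMM-scaled library sizes, and summed levels of lists use total counts without TMM scaling. The comparisons were SSCi D32 minus SSCi D25, and that change minus the change of SSCd D28 against SSCd D22. Symbols and positions are those of GENCODE M21 (GRCm38), matched by Ensembl ID; 33331 IDs had a symbol.

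The 5 libraries and the 49 gene lists (1168 genes, of which 1160 are in the table and 1094 were tested) were chosen with earlier results of these data known, so the lists are described by counts and medians and give no independent support. Genes named in the text are the 12 highest and 12 lowest called genes whose groups did not overlap and whose mean was 3 log2 CPM or more, up to 4 called genes of each list and direction with the smallest p, a fixed panel of retinal and metabolic genes, the called genes of the difference between steps, and all members where a count is 5 or fewer; 199 genes met these rules and 34 were added after their values were seen, and some of these genes are not reported here. On simulated data for 16474 genes, with 100 genes changed at each size, the main comparison recovered 27% of 2-fold and 82% of 4-fold changes, with 2 false among 111 calls, and the difference between steps recovered 6% and 58%, with 1 false among 65 calls. Of the genes tested, 240 have values equal to another gene's in all libraries, of which 14 were called; these are uncertain. The alternatives were other scalings, filters and tools (DESeq2 1.42.0, limma-voom with limma 3.58.1), fewer libraries in the fit, a replicate block, no mitochondrially encoded genes, each of the 11 compared libraries left out, and SSCi D18 replicate 1 left out. Same-numbered SSCd D28 and D22 libraries deviated from their group means with correlations of 0.39 to 0.54, which counts as pairing, and SSCi libraries did not. Promoter windows of 300 bases come from RefSeq (GRCm38.p6). Errors are SD between libraries or SE of the fit, and counting error is included in the fit.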

Additional observations from a re-analysis of the deposited data

Results flagged for a closer look

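In 7 genes the change from D25 to D32 in intact static culture differed from the change from D22 to D28 in dissected static culture by edgeR's test of the difference itself. On the log2 scale the differences, intact minus dissected, were 4.08 for Hr, 3.92 for Slc24a1, 2.44 for Klf9, 1.44 for Dbp, -1.74 for Ccdc136 and -3.94 for Pnoc. The changes behind them were 4.56 in SSCi, against 0.47 in SSCd, for Hr, 6.15 against 2.24 for Slc24a1, 3.02 against 0.58 for Klf9, 1.71 against 0.27 for Dbp, -2.41 against -0.68 for Ccdc136 and -3.32 against 0.62 for Pnoc. The seventh gene, Slc39a8, has 1 count in the D25 libraries, so that its fitted difference of 5.64 depends on the prior count and is no measure of its size. None of the 7 differences passed without D25 replicate 1 or without D25 replicate 2. Medium, age, interval and dissection differ between the steps and cannot be told apart. Groups of 3 or fewer libraries were not examined for single outlying libraries.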

How the results depend on the processing

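Against 1386 genes called in the main comparison (624 higher, 762 lower), other scalings, filters, limma-voom, the fit without mitochondrially encoded genes and the fit of the 7 intact static libraries gave 1125 to 1666. DESeq2 gave 1956 (974 higher, 982 lower), and a fit of the 5 compared libraries alone gave 3784 (1949 higher, 1835 lower), of which 1368 were shared with the main calls; in these the cause was not tested. With 1 of the 5 compared libraries left out, the total ran from 481 to 910, higher calls from 139 to 407 and lower calls from 342 to 513, each fit having fewer libraries. Without SSCi D18 replicate 1, an alternative chosen after seeing the data, 1562 genes were called.

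The difference between steps called 7 genes (5 higher, 2 lower). DESeq2 gave 35 (24 higher, 11 lower), limma-voom 3 higher, no filter 4 lower, and only the compared libraries 11, with 5 lower. With 1 of the 11 compared libraries left out it ran from 0 to 5 genes, 0 to 4 higher and 0 to 2 lower, and without SSCi D18 replicate 1 it called 6. Replicate numbers did not pair the SSCi libraries: same-numbered D32 and D25 libraries deviated with correlations of -0.2 and -0.19, which are not independent, since the deviations of 2 D25 libraries mirror each other. With the replicate number as a block, 1924 genes were called in the main comparison (861 higher, 1063 lower) and 13 in the difference (8 higher, 5 lower); with the block in SSCd D28 and D22 alone, chosen after seeing the data, 7 were.

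Over named genes and alternatives, 3360 values stayed on their side of the threshold, 49 newly passed it, 454 no longer passed and 13 turned sign, all of genes not called. B2m turned to -0.0033 with no filter and ran from -0.19 to 0.22 over the fits that left out 1 library, turning without D25 replicate 2 and D32 replicates 2 and 3. Slc6a9 turned to -0.014 with no filter, -0.00032 with only intact static libraries, -0.0599 with the block and -0.0103 without SSCi D18 replicate 1, and ran from -0.14 to 0.13 with 1 library left out. Socs3 ran from -0.21 to 0.58 and Dio3 from -0.0061 to 0.699 in those fits. Depth and the number of libraries limit low genes: with 3 against 2 libraries most 2-fold changes would not be called. The pluripotency median was 0.48, or 0.15 with a gene at 0 in 1 group set to the bound of 3 counts over the group.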
